A study of Mus musculus with 2 samples.

Results

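Gadd45a, Gadd45b and Gadd45g encode the GADD45 proteins, small acidic proteins without known enzyme activity that cells induce after DNA damage and other stress. GADD45 proteins bind and activate the kinase MAP3K4 at the head of the stress-activated MAP kinase pathways, and bind the cell cycle and repair proteins PCNA, p21 and CDK1. They have also been described as adaptors that bring base excision repair to methylated DNA. That route meets the TET enzymes at TDG, the glycosylase that removes some of the oxidised bases TET enzymes make. The Hi-C contacts of these 3 genes were examined in hair matrix keratinocytes, epithelial cells that divide in the follicle's lower bulb and form the hair and its sheath, taken from mice at postnatal day 4.5. The DKO library came from mice with Tet2 and Tet3 both deleted by a Krt14-driven Cre, a recombinase expressed from the promoter of a basal keratin and so active in keratinocytes and their descendants. The WT library came from wild-type mice. Each genotype had 1 library, the number of animals behind a library is not given in the sources used here, and contact lists measure no transcripts, so neither the deletion nor the cell type could be checked.

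The deposited values are lists of enriched pixels, each pixel standing for 2 bins of 5 kb that had more contacts with each other than their surroundings did. Members were all pixels with an anchor bin within 20 kb of either annotated end of a Gadd45 gene. There were 7 of 4872 pixels in the DKO list and 10 of 5811 in the WT list, 12 different pixels in all. The same bin pair was listed in both libraries for 5 of them, which is 71.4% of the DKO members and 50% of the WT members. Over the whole lists 39.8% of DKO pixels and 33.4% of WT pixels were in the other list. When a pixel up to 1 bin away at each anchor counted as a match, all 7 DKO members and all 10 WT members had one in the other list, as did 65.6% of all DKO pixels and 61.9% of all WT pixels. The member pixels given below as listed in 1 library alone thus had a neighbour within 1 bin in the other. Neighbouring pixels of 1 contact share bins, so the 12 pixels are not independent. The genes were chosen by the observed over expected values of these same libraries, because a Gadd45b pixel had one of the lowest ratios of DKO to WT. That ratio is therefore given below as a description. A ratio needs a pixel in both lists, so the choice also favoured overlap. Nothing is read from the overlap shares of the members, which are set beside those of all pixels as a description. With 1 library per genotype no test was possible. Intervals are exact 95% intervals for counting error alone.

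The 3 genes differed in what was listed around them. Gadd45b (chromosome 10, 80930091 to 80932204) had 5 DKO pixels and 7 WT pixels, of which 4 were in both lists. Gadd45g (chromosome 13, 51846675 to 51848475) had 2 DKO pixels and 3 WT pixels, with 1 in both. Gadd45a (chromosome 6, 67035096 to 67037407) had none in either list. Among 21887 protein-coding genes, 18.2% had a pixel within 20 kb of an end in both lists, 7.91% in the DKO list alone, 9.93% in the WT list alone and 64.0% in neither. An identical pixel in both lists lay near 11.8% of the genes, and at least 4 such pixels near 1.48%.

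The promoters of Gadd45b and Gadd45g are shown because called anchors reached them. The bin that carried the strongest Gadd45b pixels ended 91 bp before the gene start and held the first 160 bases of the 300-base RefSeq promoter window (GRCm38.p6). A WT pixel of Gadd45g had its bin over the whole window. The 250 bases before each start site are printed from 5′ to 3′ on the strand of the gene, the plus strand for both, with the motifs CCAAT and TATAAA in capitals.
Gadd45b, chr10:80929841-80930090: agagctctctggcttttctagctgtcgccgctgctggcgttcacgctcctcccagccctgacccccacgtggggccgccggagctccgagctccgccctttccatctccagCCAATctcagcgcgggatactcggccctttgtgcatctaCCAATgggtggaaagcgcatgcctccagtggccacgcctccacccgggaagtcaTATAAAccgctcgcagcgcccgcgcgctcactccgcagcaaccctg
Gadd45g, chr13:51846425-51846674: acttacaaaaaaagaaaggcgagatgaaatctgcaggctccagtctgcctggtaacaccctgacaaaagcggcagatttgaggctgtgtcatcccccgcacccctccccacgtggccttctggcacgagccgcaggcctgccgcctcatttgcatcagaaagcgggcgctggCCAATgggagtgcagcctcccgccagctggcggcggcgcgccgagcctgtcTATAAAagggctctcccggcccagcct

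Both promoters held a TATAAA, at 46 bases before the start site in Gadd45b and 27 bases before it in Gadd45g, a motif found on either strand in 13.6% of 32851 promoter windows. CCAAT, present in 37.4% of windows, occurred at 139 and 100 bases before the start site of Gadd45b and at 78 bases before that of Gadd45g. The Gadd45a window held CCAAT once, at 86 bases, and no TATAAA. All 3 windows held more CpG, the dinucleotide that carries most methylated cytosine, than the median window. Gadd45a had 14, Gadd45b 24 and Gadd45g 21 CpG per window, against a median of 7 over all windows. The share of windows with fewer CpG was 63.7% for Gadd45a, 80.0% for Gadd45b and 75.2% for Gadd45g. GGGCGG, in 35.7% of windows, occurred once in Gadd45a and once in Gadd45b and was not in the Gadd45g window. CCCTC, in 66.0% of windows, occurred 3 times in Gadd45a and 1 time in each of the others. The palindrome TGACGTCA, in 1.79% of windows, was in none of the 3. Motifs were searched on both strands, and no matches in these windows shared bases.

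The contact of Gadd45b joined the 15 kb upstream of the gene to the interior of Gng7, which encodes a gamma subunit of heterotrimeric G proteins and lies on the other side of Gadd45b from the left anchors (chromosome 10, 80948624 to 81014925, minus strand). Member pixels spanned 55 to 70 kb. Their right bins, from 80980001 to 81000000, all lay between the ends of Gng7, and the last of them was 1365 bp from a start site of Gng7 inside the annotated gene. The left bins ran from 80915001 to 80930000. The farthest of them covered the start of Lmnb2, the gene of lamin B2, a protein of the nuclear lamina, and was listed in WT alone. The next left bin, 80920001 to 80925000, had pixels in both libraries. It lay 1756 bp from the Lmnb2 start site and 5091 bp from Gadd45b, so these contacts cannot be assigned to Gadd45b alone. Timm13, Tmprss9 and Diras1 also had an end within 20 kb of a member bin. The 5 DKO pixels formed 1 contact when pixels within 20 kb at both anchors were joined, and so did the 7 WT pixels. Contacts of that many pixels or more made up 6.399% of 2641 DKO contacts and 3.03% of 2902 WT contacts.

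**Figure D1:**
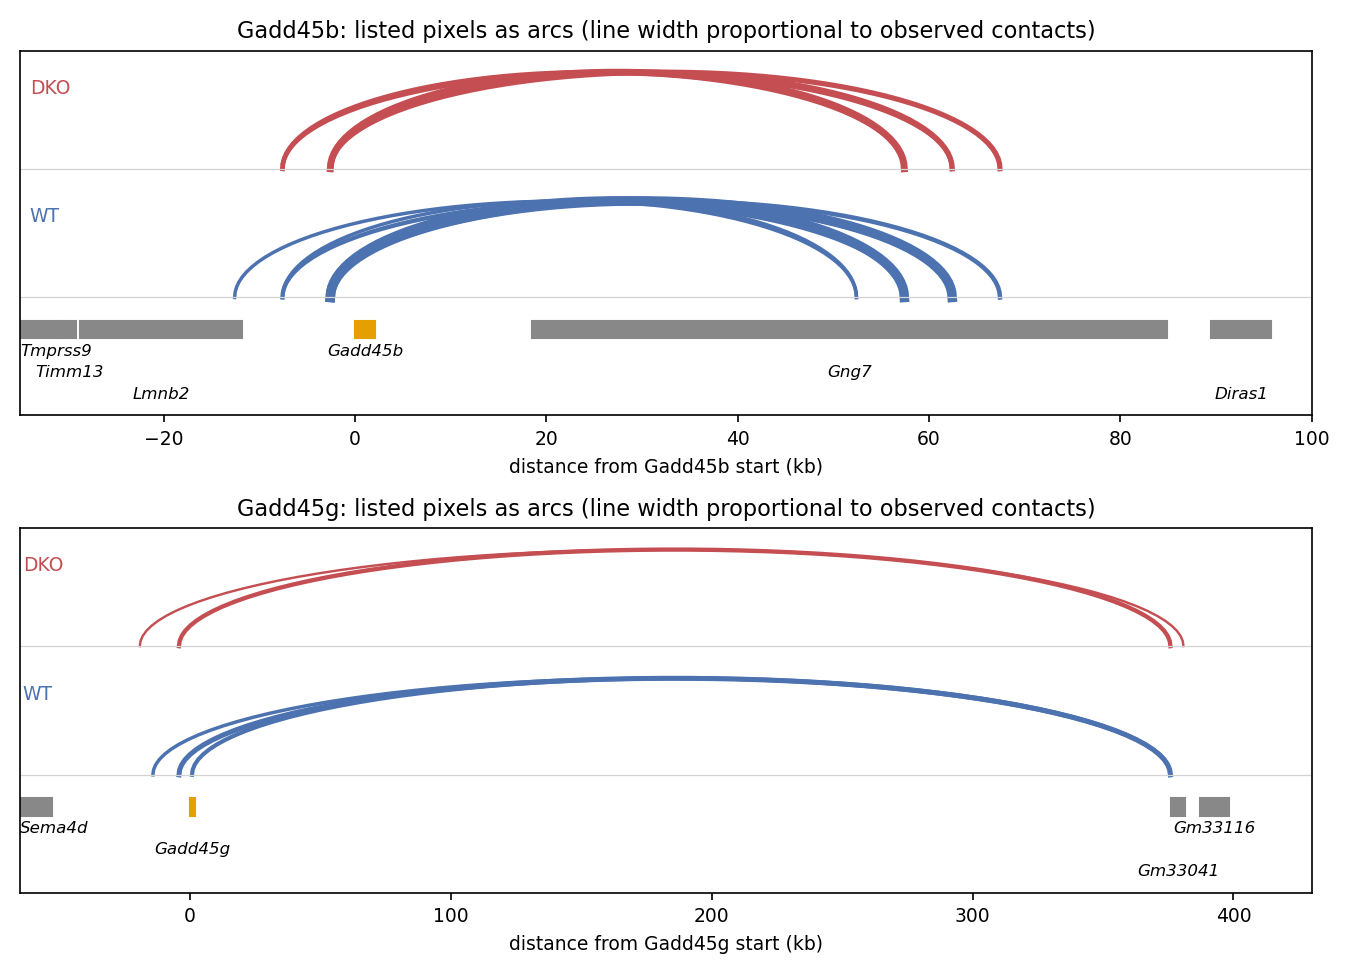
Listed pixels as arcs over Gadd45b (upper panel) and Gadd45g (lower panel), with DKO above WT, line width proportional to observed contacts, distance from the gene start in kb on the horizontal axis and genes as boxes below. The arcs of Gadd45b end inside Gng7 after 55 to 70 kb, and those of Gadd45g cross 375 to 400 kb with no other protein-coding gene of the gene table between their anchors.

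The strongest Gadd45b pixels started from the bin next to the gene, 80925001 to 80930000. The pixel with the lowest ratio joined it to the bin from 80990001 to 80995000, over 65 kb, and had 31 contacts in the DKO library (21.1 to 44.0) and 55 in the WT library (41.4 to 71.6). The donut expected count, the contacts expected from a ring around the pixel, was 6.29 in DKO and 6.62 in WT. Observed over expected, here called enrichment, was thus 4.93 in DKO (3.35 to 6.99) and 8.31 in WT (6.26 to 10.8), a DKO/WT ratio of 0.593 (0.369 to 0.937). The count was lower in DKO and the donut expected counts were nearly alike, so this ratio came from the observed contacts. Another deposited expected count, the bottom-left one, differed more, at 5.71 in DKO and 6.71 in WT.

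The adjoining pixel, to the bin from 80985001 to 80990000, was the other strong one. DKO counted 40 contacts there (28.6 to 54.5) and WT 55 (41.4 to 71.6). Enrichment was 5.92 in DKO (4.23 to 8.06) and 8.13 in WT (6.12 to 10.6), which gives a DKO/WT ratio of 0.728 (0.472 to 1.11). DKO was again below WT, but this interval included 1.

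The remaining pair of pixels in both lists had ratios nearer 1. From the same left bin to 80995001, over 70 kb, there were 30 contacts in DKO (20.2 to 42.8) and 26 in WT (17.0 to 38.1). This was an enrichment of 4.23 in DKO and 3.75 in WT, or a DKO/WT ratio of 1.13 (0.645 to 1.99). From the next bin out, 80920001, to 80990001 there were 26 contacts in DKO (17.0 to 38.1) and 25 in WT (16.2 to 36.9), with enrichments of 4.003 in DKO and 4.07 in WT, or a DKO/WT ratio of 0.983 (0.545 to 1.77). Of the 4 pixels, the one the gene was chosen for was the one with an interval wholly under 1. In DKO the 5 listed pixels lay between 4.003 and 5.92 times expected, while the 7 in WT lay between 3.46 and 8.31.

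**Figure D2:**
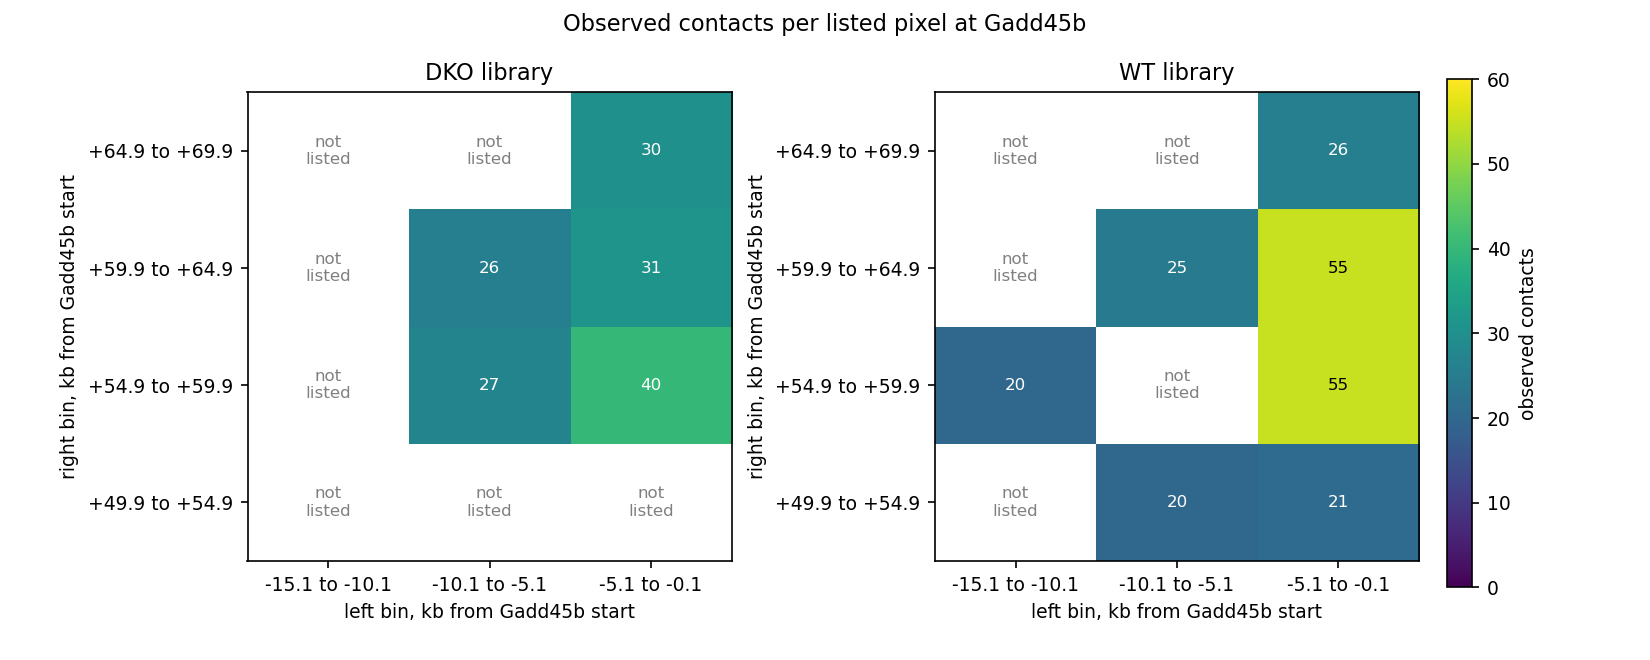
Observed contacts of each listed Gadd45b pixel, in the DKO library (left) and the WT library (right), by left bin (horizontal axis) and right bin (vertical axis), both in kb from the gene start. The column next to the gene holds 55 contacts in 2 WT bins, where DKO has 40 and 31.

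Summed over the 4 pixels in both lists, Gadd45b had 127 contacts on 26.6 expected in DKO and 161 contacts on 26.5 expected in WT. The enrichment was 4.77 in DKO and 6.08 in WT, with a DKO/WT ratio of 0.784 (0.616 to 0.995). Over the 3 of these pixels that start from the bin next to the gene, the counts were 101 in DKO and 136 in WT, and the DKO/WT ratio was 0.749 (0.573 to 0.977). Over all 1940 pixels in both lists, 43188 contacts in DKO against 45347 in WT gave 0.980 (0.967 to 0.993). The sum over Gadd45b includes the pixel the gene was chosen for, so it is not separate evidence of a difference. At the highest pixel of each list, enrichment was 5.92 in DKO and 8.31 in WT, with a DKO/WT ratio of 0.713 (0.462 to 1.09), whose interval included 1. These were different bin pairs, with right bins starting at 80985001 in DKO and 80990001 in WT. The WT pixel tied at 55 contacts with its neighbour and was taken for its higher enrichment. It is the pixel the gene was chosen for, so this ratio is not separate evidence either.

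Pixels called in a single list completed the Gadd45b contact. The DKO list alone held the pixel from 80920001 to 80985001, with 27 contacts at 4.26 times expected (2.80 to 6.19). The WT list alone held 3, from 80915001 to 80985001 with 20 contacts (3.46, 2.12 to 5.35), from 80920001 to 80980001 with 20 (3.81, 2.33 to 5.89) and from 80925001 to 80980001 with 21 (3.58, 2.21 to 5.47). The WT-only pixels lay along the outer rim of the contact, at the farthest left bin and the nearest right bin. Absence from a list does not mean absence of contacts. Among DKO pixels whose 4 expected counts were within 20% of those of each of these WT-only pixels, the lowest listed count was 17, and for the DKO-only pixel the lowest WT count was 22.

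Gadd45g, first described as a gene induced by cytokines, contacted a distant site. All its pixels ended in the neighbouring bins from 52220001 to 52230000, which overlap the lncRNA gene Gm33041 (52222868 to 52227977, plus strand). The bin from 52220001 to 52225000 holds its start site. The lncRNA gene Gm33116 (52233830 to 52245034) lay 3830 bp beyond the farther bin. No other protein-coding gene lay within 20 kb of either anchor. Spans were 375 to 400 kb, and 5.67% of all DKO pixels and 7.07% of all WT pixels spanned 375 kb or more.

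The Gadd45g pixel in both lists joined 51840001 to 51845000, 1675 bp before the gene start, to 52220001 to 52225000. DKO counted 25 contacts (16.2 to 36.9) and WT 29 (19.4 to 41.6). Enrichment was 6.54 in DKO (4.23 to 9.65) and 7.03 in WT (4.71 to 10.1), with a DKO/WT ratio of 0.930 (0.522 to 1.64). The intervals of the libraries overlapped widely here. WT also listed the bin over the gene itself, 51845001 to 51850000, with 24 contacts at 4.94 times expected (3.16 to 7.35), and the bin from 51830001 with 20 contacts at 4.83 (2.95 to 7.46). DKO also listed the pixel from 51825001 to 52225001 with 14 contacts at 5.25 (2.87 to 8.81), the member farthest from its gene at 16675 bp. The bin that holds the Gadd45g promoter was thus listed in WT alone. DKO pixels with similar expected counts were listed from 17 contacts upwards, so fewer than that could go unlisted.

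**Figure D3:**
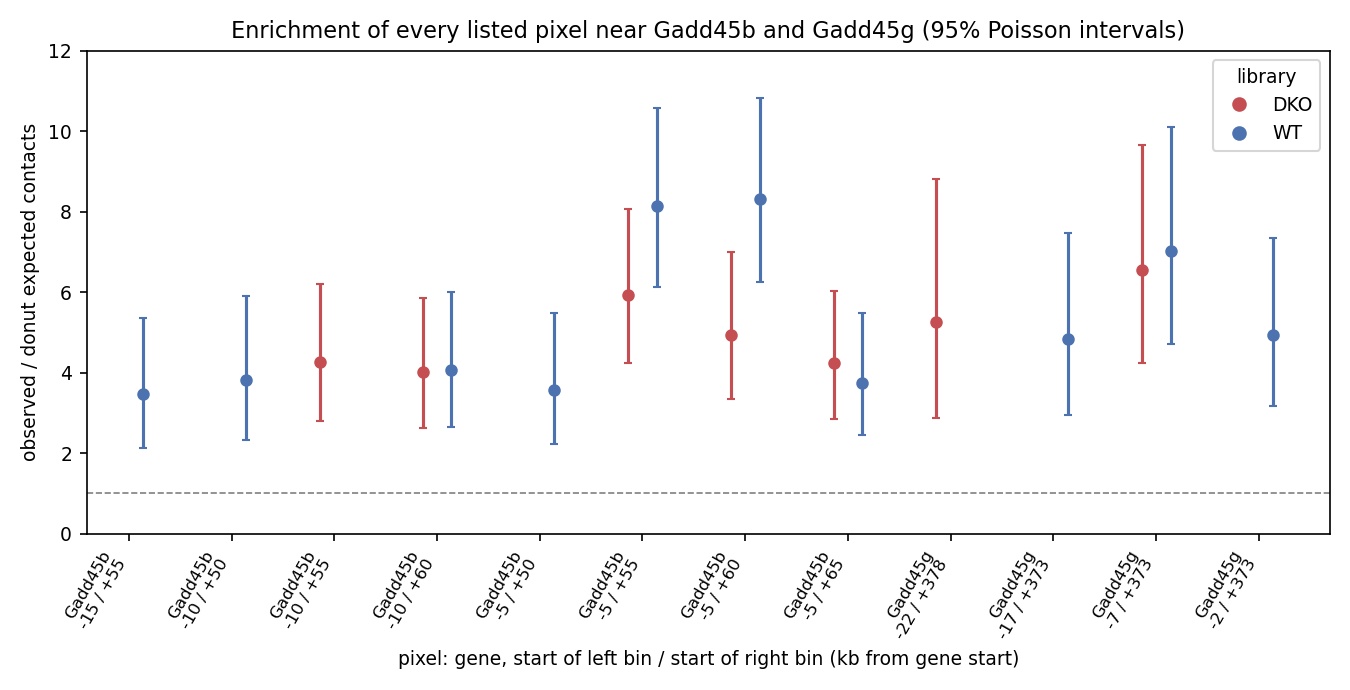
Enrichment (observed over donut expected contacts) of every listed pixel near Gadd45b and Gadd45g, DKO left of WT, with 95% Poisson intervals; a missing point means that the pixel was not listed in that library. Only the 2 strongest WT pixels of Gadd45b, at 8.13 and 8.31, stand clear of the other WT pixels of that gene, and the Gadd45g pixel in both lists has overlapping intervals.

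Gadd45a, the family member that p53 induces, had no pixel within 20 kb of either end, a state it shared with 64.0% of protein-coding genes. The nearest listed pixels joined bins on both sides of the gene. In DKO 1 pixel ran from 66960001 to 67155001, with 14 contacts at 6.05 times expected (3.31 to 10.1). In WT 2 pixels ran to 67145001, from 66965001 with 15 contacts at 4.33 (2.42 to 7.14) and from 66960001 with 12 at 4.77 (2.46 to 8.33). The gene lay between the anchors in all 3, 70096 bp from the nearer DKO anchor and 65096 bp from the nearer WT anchor. The left anchors fell within Gng12 (chromosome 6, 66896397 to 67021361), a G protein gamma subunit gene that ended 13.7 kb from Gadd45a. The nearest pixels outside the 20 kb window at Gadd45b were 2 that met in a bin 45091 bp away, both listed in WT. The one from 80745001 to 80880001 had 18 contacts at 4.36 times expected (2.59 to 6.89), and the one from 80880001 to 80995001 had 24 at 4.38 (2.80 to 6.51). That pixel shared its right bin with the Gadd45b contact, and no DKO pixel lay between 20 kb and 225091 bp.

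Set against all 1940 pixels in both lists, the Gadd45b pixels were spread from the low end of the ratios to above their median. The median DKO/WT ratio was 0.983, with quartiles of 0.841 and 1.15. Of the 5 member pixels 1 was at least 1.5-fold lower in DKO and none at least 1.5-fold higher, where 5.26% of all pixels were lower and 3.56% higher by that fold. The gene was chosen for that pixel, so nothing is read from its count. By rank from the lowest ratio, the Gadd45b pixels stood at 34, 187, 967 and 1395 of 1940, and the Gadd45g pixel at 779. A 95% interval wholly under 1 was found at 1.03% of all pixels, and at 1 of the 5 members. That member is the pixel the gene was chosen for, so nothing is read from this count either. Of pixels with at least 30 contacts in each list, 146 in number, the lowest Gadd45b ratio was number 4 from the bottom and the next Gadd45b pixel was at rank 13. The pixels next to the lowest Gadd45b one in this order had ratios of 0.584 on chromosome 11 and 0.631 on chromosome 2. The rank depends on the floor of 30, which the lowest Gadd45b pixel passed with 31 contacts in DKO. Some pixels with lower ratios fell under it, such as one with 27 in DKO, 55 in WT and a ratio of 0.518. The 360 pixels of a similar span, 55 to 75 kb, had a median ratio of 0.984, and the 106 pixels spanning 350 kb or more had 1.04.

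**Figure D4:**
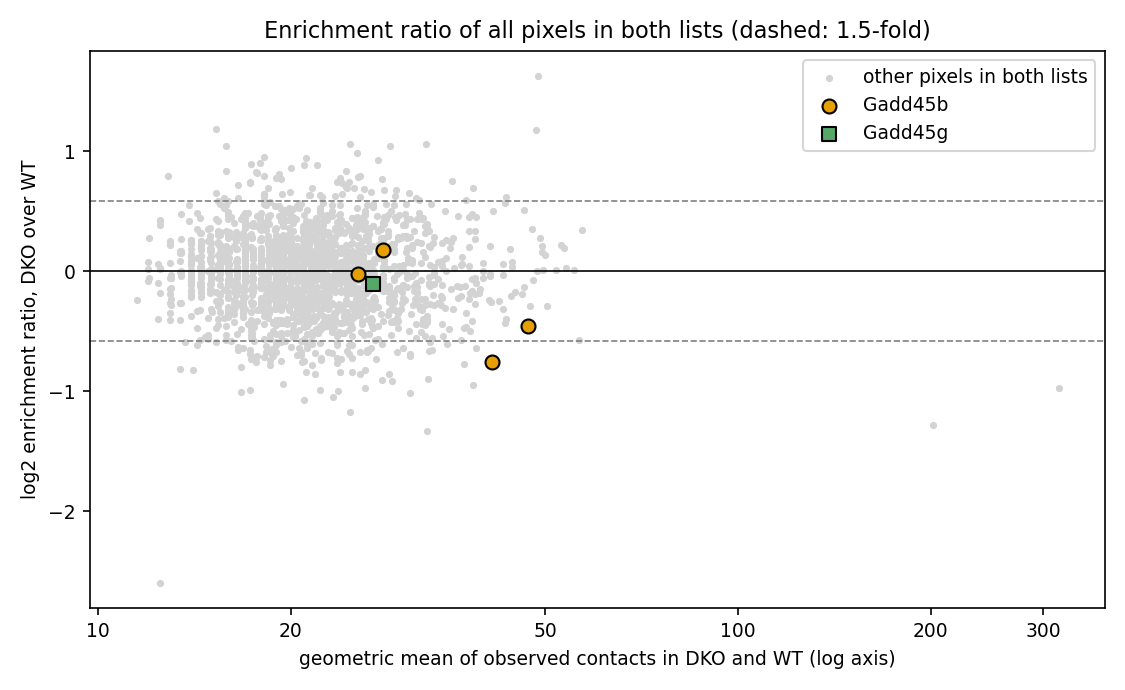
The log2 ratio of enrichment, DKO over WT, of all 1940 pixels in both lists against the geometric mean of their contacts (log axis), with Gadd45b as orange circles, Gadd45g as a green square and dashed lines at 1.5-fold. One Gadd45b circle lies below the lower line, one between it and 0, and the other two with the Gadd45g square lie near 0.

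The expected count used mattered for the size of the ratios. For the lowest Gadd45b pixel the ratio was 0.663 (0.412 to 1.05) with the bottom-left expected count, 0.582 (0.362 to 0.920) with the horizontal and 0.554 (0.345 to 0.875) with the vertical one. The direction held in all, but each used the same observed contacts of the pixel the gene was chosen for. Nothing is read from it, and the interval included 1 with the bottom-left count. The pixel at 0.728 ranged from 0.732 to 0.855 with other expected counts or with scaling by depth. The pixel at 1.13 ranged from 0.938 to 1.31, and the pixel at 0.983 from 0.841 to 1.07, so that the direction of neither was settled. For Gadd45g the ratio stayed under 1, at 0.811 to 0.949.

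**Figure D5:**
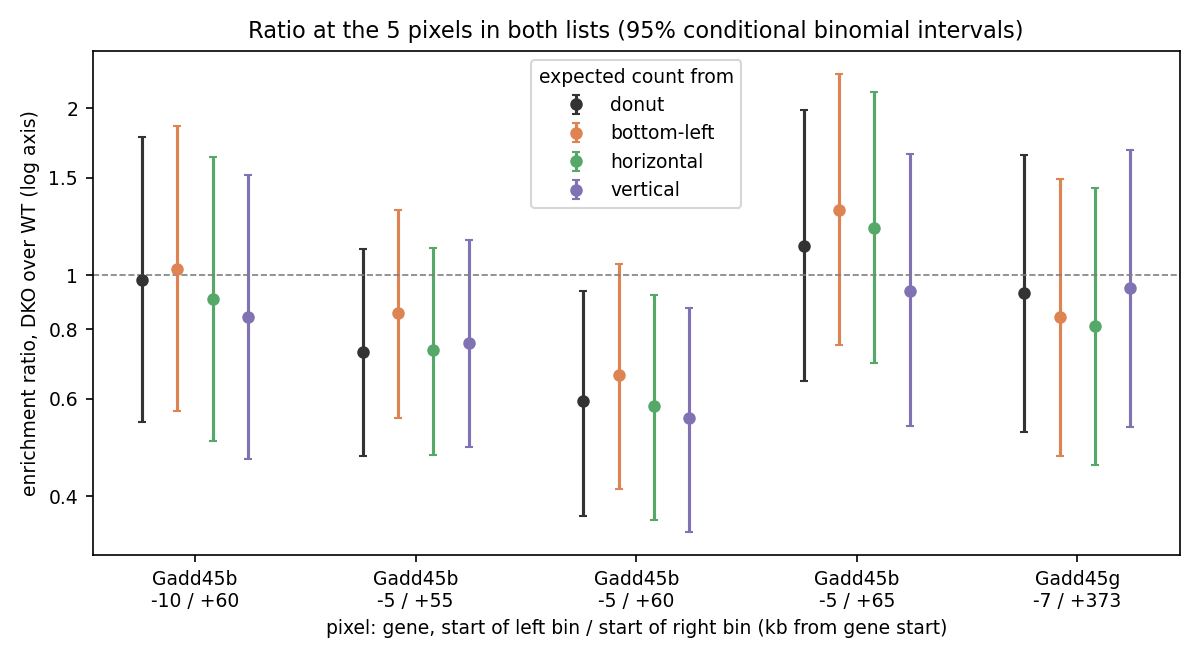
DKO/WT enrichment ratio (log axis) at the 5 member pixels in both lists, computed with each of the 4 deposited expected counts, with 95% conditional binomial intervals. The third pixel, the one the gene was chosen for, stays under 1 with every expected count, at 0.554 to 0.663, and its bottom-left interval reaches 1.05.

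Genes that act with the GADD45 proteins were placed in the same way, by lists chosen with earlier results of these data known. Of 34 genes, 7 had a pixel within 20 kb in both lists, 4 in DKO alone, 5 in WT alone and 18 in neither. Over all protein-coding genes those shares were 18.2%, 7.91%, 9.93% and 64.0%. Of the 10 binding partners and effectors, Map3k4, the kinase that GADD45 proteins activate, was the 1 gene in both lists. Aurka was in DKO alone, and Mapk14, Mapk8, Cdkn1a and Ccnb1 were in WT alone. Of the 11 base excision and deamination genes, the glycosylase genes Smug1 and Neil2 and the endonuclease gene Apex1 were in both lists. Ung and Neil1 were in DKO alone and Parp1 in WT alone, and Tdg was in neither. Of the 13 genes listed as inducers, Foxo3, Egr1 and Stat3 were in both lists and Smad3 in DKO alone, while Trp53, Nfkb1 and Rela were in neither. Whether each gene so listed induces Gadd45 transcription was not tested.

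Identical pixels were listed near 6 of these genes, 14 pixels in all, with a median ratio of 1.02 against 0.983 over all pixels. The lowest ratio among them belonged to Map3k4, with 13 contacts in DKO, 21 in WT and a DKO/WT ratio of 0.633 (0.291 to 1.32). Another Map3k4 pixel of the same contact had 21 in DKO, 17 in WT and a DKO/WT ratio of 1.27 (0.636 to 2.56), and the gene's sum over 3 pixels was 54 in DKO and 61 in WT, with a DKO/WT ratio of 0.879 (0.598 to 1.29). The highest was a Neil2 pixel, with 26 contacts in DKO, 17 in WT and a DKO/WT ratio of 1.85 (0.965 to 3.63). Summed ratios were 1.37 at Neil2 (0.934 to 2.03), 0.990 at Smug1 (0.730 to 1.34) and 1.05 at Stat3 (0.762 to 1.45). At Foxo3 and Egr1, each with 1 pixel, they were 1.05 (0.526 to 2.06) and 0.940 (0.480 to 1.84). All these intervals included 1. Apex1 had 1 pixel in each list and none in common.

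The genes with the most similar pixel were found among 318 protein-coding genes near a pixel with at least 30 contacts in each list. Likeness was the distance between log2 enrichments over the 2 libraries, from the Gadd45b pixel at 4.93 in DKO and 8.31 in WT. This target is the pixel the gene was chosen for. It tied at 55 WT contacts with the adjoining pixel, at 5.92 in DKO and 8.13 in WT, which was not used as a target. Nearest, at 0.09, was a pixel on chromosome 2 near Cyp24a1, the vitamin D hydroxylase gene, and Pfdn4, a prefoldin subunit gene. That pixel held 30 contacts in DKO and 36 in WT, with enrichments of 4.94 in DKO and 7.83 in WT. The next, at 0.20, lay on chromosome 5 near Ccng2 and Ccni, both cyclin genes, and 2010109A12Rik, which shared it. That one held 34 contacts in DKO and 41 in WT, with enrichments of 5.44 in DKO and 7.57 in WT. These pixels also had ratios among the lowest of the 146, which follows from the measure.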

How the data were processed

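Hi-C was done per the labels' protocols on sorted cells fixed in 2% formaldehyde for 10 minutes, with the Arima enzymes and read pairs of 150 bp. The lists were written by juicer_tools 1.22.01, per the file headers, on GRCm38 (mm10), per the submitters' processing notes; the aligner, the read filters and the sequencing depth are not stated there. The authors deposited for each pixel an observed contact count (raw), 4 expected counts (a signal in the same scale), a score that numbers the expected class, and a q-value (FDR) per neighbourhood, all under 0.1. The lowest listed count was 10. Enrichment ratios, intervals (Poisson, conditional binomial) and distances were computed here with Python 3.11.15, scipy 1.17.1 and pandas 2.3.3. The ratio intervals were tested on simulated Poisson counts with the expected counts held fixed. Pixel calling, the choice of a low ratio and spread between libraries were not simulated. Relative depth, the median DKO/WT donut expected count at pixels in both lists, was 0.973. Contacts were joined at 20 kb. Gene ends were read from RefSeq (GRCm38.p6), without exons, and start sites and promoters from a RefSeq promoter table. Coordinates are 1-based. The members, gene lists and tests were chosen with earlier results of these data known. Named were the members, protein-coding genes with an end within 20 kb of a member bin, list genes in both lists and the 3 nearest genes by enrichment, with ties; list genes in 1 or neither list, Gng12 and the lncRNA genes Gm33041 and Gm33116 were named after their values were seen. The order of pixels within a gene and the sum over its nearest bin were also looked at after the values were seen. A planned comparison of protein sequences was not run.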

Additional observations from a re-analysis of the deposited data

How the results depend on the processing

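No paired analysis was possible because there is a single library of each genotype, and for that reason no replicate could be left out. Of 66 recomputed values, 49 moved by less than their interval (counts by less than 1.5 times) and 17 moved by more. Ratios crossed 1 at 2 Gadd45b pixels whose intervals included 1. The one at 0.983 was 1.03 with the bottom-left expected count and 1.07 with scaling by depth, and the one at 1.13 was 0.938 with the vertical expected count. The lowest ratio stayed under 1 in every recomputation. With other expected counts, depth scaling or the stricter FDR, the observed contacts were the same, at the pixel the gene was chosen for. Nothing is read from that direction. Member pixels numbered 4 in DKO and 6 in WT with a 5 kb window, and also 4 and 6 at an FDR under 0.01. The lowest Gadd45b ratio, 0.593, was 0.784 summed over the gene and 0.713 at the highest pixel of each list, a different bin pair in DKO and WT. The share of all pixels at least 1.5-fold lower in DKO, 5.26%, was 17.7% at the smaller alternative fold, 0.464% at 2-fold, 4.11% with at least 30 contacts in each list, 7.95% with horizontal and 8.11% with vertical expected counts. The share higher in DKO, 3.56%, was 15.3% at the smaller fold, 0.361% at 2-fold, and 5.24%, 7.33% and 7.12% with bottom-left, horizontal and vertical expected counts. List genes in both lists numbered 4 with a 5 kb window. At an FDR under 0.01, 0 list genes were in DKO alone and 2 in WT alone. The cause of these shifts was not tested, apart from the narrower windows, stricter calls and other folds, which change the counts by construction. Member pixels in both lists had 25 to 55 contacts per library. Counting error thus leaves intervals on their single ratios that span a factor of more than 2.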
